A study of Bos taurus with 21 samples.

Results

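Foetal muscle at 210 days post conception (dpc) was compared with foetal muscle at 180 dpc in cattle, across all genes of a bovine oligonucleotide array. The arrays were chosen by their gestational stage label, which put 11 of the 21 arrays of the series in the comparison, 5 at 180 dpc and 6 at 210 dpc. At 180 dpc there were 2 Blonde d'Aquitaine (BA) and 3 Charolais (CH) foetuses, and at 210 dpc 3 of each breed. BA and CH are both French beef breeds, and BA is known for its high muscle mass. Each array carried Cy3-labelled RNA of 1 untreated foetus, and no foetus was pooled or sampled at both stages, so a change is a difference between animals and not within an animal. The sample labels name *m. Longissimus thoracis*, whereas the study's methods name *m. Semitendinosus*, and the arrays cannot tell these muscles apart. Males were 1 of 5 foetuses at 180 dpc and 3 of 6 at 210 dpc, and the Y-linked genes *USP9Y* and *DDX3Y* matched the sex label on all 11 arrays. The sires were also unevenly spread: both BA foetuses at 180 dpc had the same father, who was the father of 1 of the 3 at 210 dpc, and the father of all 3 CH foetuses at 210 dpc was the father of 1 of the 3 at 180 dpc. The arrays lay on 6 slides, of which 2 held both stages, and were scanned on 3 days, each of which held both stages.

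Skeletal muscle fibres of cattle are laid down before birth, when myoblasts leave the cell cycle and fuse. The fibres formed first use developmental myosins, such as embryonic myosin (*MYH3*) and perinatal myosin (*MYH8*), and these give way to the slow (*MYH7*) and fast (*MYH2*, *MYH1*) adult forms during late gestation and after birth. Maturation also brings thicker Z-discs and triads, more glycolytic and mitochondrial enzymes, adult forms of ion channels and receptors, and less proliferation and matrix synthesis.

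All values are levels of single probes on a log2 scale, on which 0 is the 75th percentile of the non-control probes of that array, and all differences are 210 minus 180 dpc, with breed in the model. The 75th percentile was 645.6 to 1083.2 intensity units at 180 dpc and 652.3 to 1173.5 at 210 dpc, and 29017 to 34223 probes per array were well above background. Any pair of arrays correlated at 0.9689 to 0.9868. The tissue label was borne out by the markers of skeletal muscle fibres, since all 13 were measured, and their summed intensity was 1780 to 2349 times the array's 75th percentile at 180 dpc and 2102 to 2683 times at 210 dpc. Where a level differed between stages in these pieces of whole muscle, fewer cells of a type and less RNA per cell cannot be told apart.

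Of 31322 probes tested, 2204 (7.04%) differed between the stages at an adjusted p under 0.05. These were 1132 that rose (3.61%) and 1072 that fell (3.42%), with a median absolute difference of 0.59. The arrays of both stages did not overlap in 2067 of all probes (6.6%). Changes of at least 2-fold were fewer, at 355 probes (1.13%), of which 214 rose (0.683%) and 141 fell (0.45%). Taking each gene by its brightest tested probe, 844 of 10301 genes passed (8.19%), 389 of them higher (3.78%) and 455 lower (4.42%) at 210 dpc. Among these, 125 genes (1.21%) changed by at least 2-fold, 71 up (0.689%) and 54 down (0.524%). The arrays of both stages did not overlap in 591 of the 844 genes, and in 798 (7.75%) of all genes tested.

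**Figure D1:**
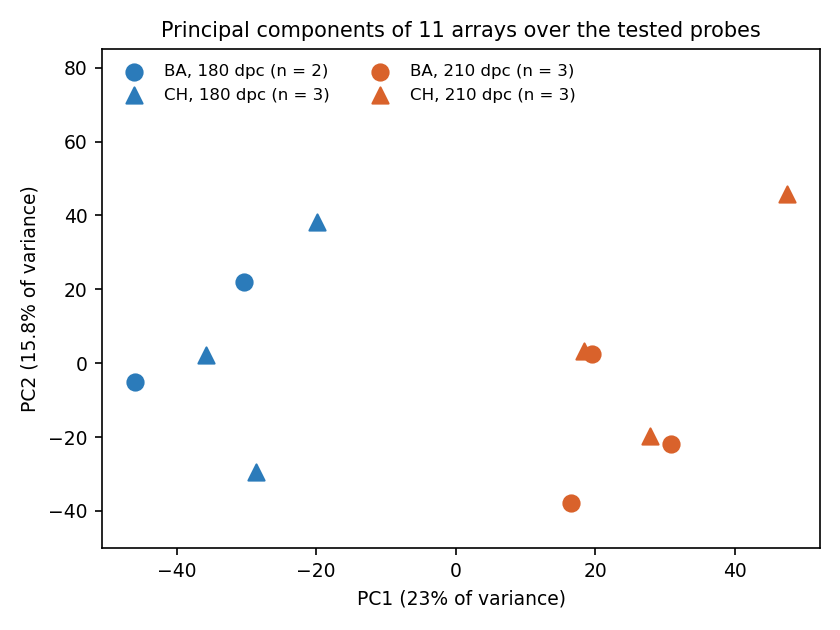
First and second principal component of the 11 arrays over the tested probes, with the share of variance on each axis; colour gives the stage and shape the breed. The 5 arrays at 180 dpc had PC1 scores from -45.97 to -19.91 and the 6 arrays at 210 dpc from 16.55 to 47.51, whereas the breeds were mixed on both axes.

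The leading axis of variation between the arrays followed stage. Scores on the first principal component, which held 23% of the variance, were below 0 on all 5 arrays at 180 dpc and above 0 on all 6 at 210 dpc. Breeds were intermingled on it. Of the 2204 probes, 2180 had the same sign on each of the 3 scan days taken alone, 1 of which held 1 array of each stage. The number that passed depended on what else was in the model: 1601 with sex as a covariate, 202 among the 7 female foetuses, 60 with the sire in place of breed, and 3 with slide as a block, where only the slides holding both stages carry information. All 2204 probes kept their sign in each of these fits. Their choice by the joint fit of the same arrays favours the same sign, both here and on the scan days. Leaving out 1 array gave 1114 to 2057, with the lowest count without BA replicate 2 at 180 dpc, and counts of 1335 to 1469 without BA replicate 1, CH replicate 1 or CH replicate 3 at 180 dpc or BA replicate 1 or 3 at 210 dpc.

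**Figure D2:**
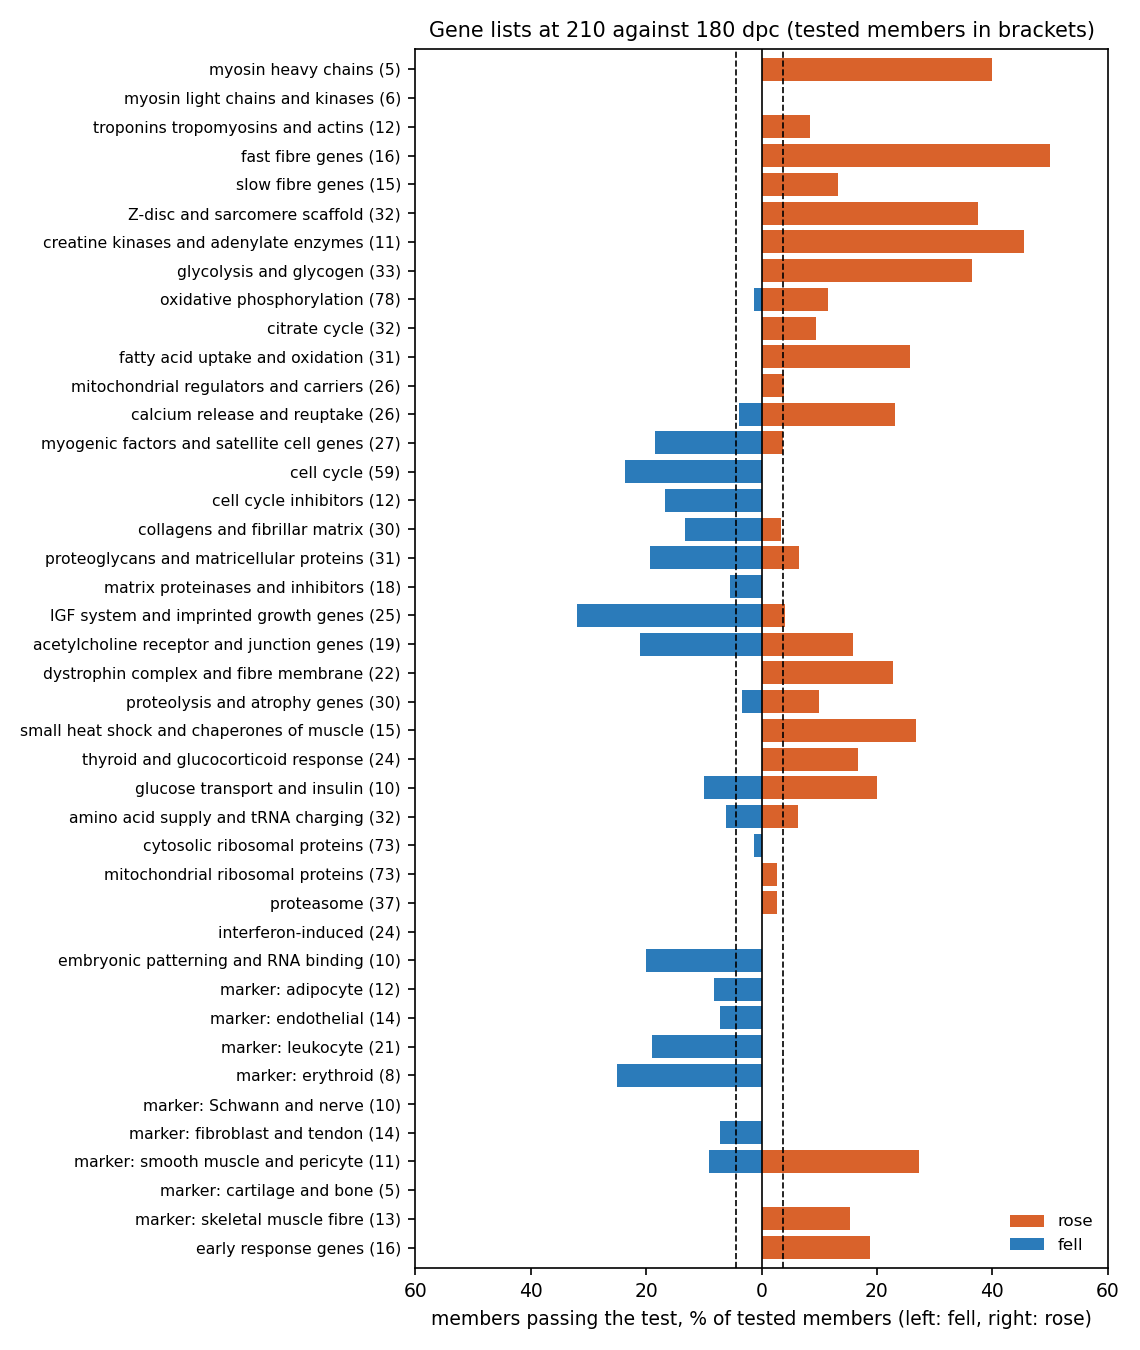
Share of the tested members of each gene list that rose (right, orange) or fell (left, blue) at an adjusted p under 0.05, in percent of the members tested (number in brackets). Dashed lines mark the shares over all 10301 genes, 3.78% rising and 4.42% falling. Most muscle fibre and energy lists exceed the rising share, and the cell cycle, growth, collagen and proteoglycan lists the falling share. Myosin light chains and kinases had no member on either side. Mitochondrial regulators and carriers (3.85% rising) and matrix proteinases (5.56% falling) lay near the dashed lines, and 6.45% of proteoglycans and matricellular proteins rose.

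Counts of list members that passed moved with single arrays, mostly those at 180 dpc. Without BA replicate 2 at 180 dpc, 5 in place of 8 fast fibre genes rose, 3 in place of 9 oxidative phosphorylation genes, 5 in place of 8 fatty acid genes and 0 in place of 4 genes of the thyroid and glucocorticoid response, and 8 in place of 14 cell cycle genes, 4 in place of 8 IGF and imprinted genes and 1 in place of 5 myogenic genes fell. Without BA replicate 1 at 180 dpc, 7 in place of 12 Z-disc genes, 3 in place of 6 calcium genes and 0 in place of 3 citrate cycle genes rose. Small heat shock genes were 1 in place of 4 without either of these arrays, or without CH replicate 1 or 3 at 180 dpc or BA replicate 3 at 210 dpc. Collagen genes that fell were 2 in place of 4 without any 1 of 7 of the arrays, creatine kinase genes that rose 3 in place of 5 without BA replicate 1 or 2 or CH replicate 1 or 3 at 180 dpc, and the leukocyte markers that fell 0 in place of 4 without BA replicate 1 or CH replicate 3 at 180 dpc. Over all 11 arrays left out in turn, the median stayed between 0.41 and 0.58 for fast fibre genes, 0.40 and 0.48 for Z-disc genes, 0.27 and 0.39 for glycolysis, and -0.35 and -0.25 for the cell cycle.

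Among the contractile proteins, the adult fast myosins rose and the developmental and slow forms did not pass the test. *MYH2*, the fast oxidative (IIa) heavy chain, had levels of 5.65 and 6.16 in BA and 6.13, 6.41 and 5.85 in CH at 180 dpc, and of 6.66 (lowest), 7.12 (median) and 7.44 (highest) at 210 dpc. All 6 arrays at 210 dpc were above all 5 at 180 dpc, a rise of 1.05 ± 0.17 (SE, log2; 2.07-fold, adjusted p = 0.0079). *MYH1*, the fast IIx heavy chain, had levels of 4.28 and 4.45 in BA and 4.72, 4.48 and 4.70 in CH at 180 dpc by its brightest probe, and of 4.96, 5.26 and 5.41 (lowest, median, highest) at 210 dpc. This probe rose by 0.71 ± 0.10 (adjusted p = 0.0039) without overlap of the stages.

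The other probes of *MYH1* gave much larger rises. All 6 passed, with differences of 0.71, 1.72, 4.28, 4.32, 4.75 and 4.94 on the log2 scale, so the brightest probe gave the smallest of these changes. One of them, not well above background at 180 dpc but measured on all 6 arrays at 210 dpc, rose at least 8.62-fold. That probe was tested through the arrays at 210 dpc alone. Whether probes of *MYH1* also bind RNA of the similar fast and developmental heavy chain genes was not tested. The 4 probes of *MYH2* ranged from 0.99 to 1.52 and all passed.

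Embryonic *MYH3* was at 8.03 ± 0.09 (SD, n = 5) at 180 dpc and 8.10 ± 0.09 (n = 6) at 210 dpc, a difference of 0.06 with a 95% interval of -0.11 to 0.23. A second, dimmer *MYH3* probe differed by -0.51 (adjusted p = 0.061). For perinatal *MYH8* the difference was 0.19 (-0.08 to 0.45), and for slow *MYH7* it was 0.14 (-0.27 to 0.56). At these intervals a 2-fold change of *MYH3*, *MYH7* or *MYH8* in either direction lay outside what the brightest probe measured, whereas smaller changes did not. These intervals do not bound the change of the RNA, since the brightest probes of these genes changed less than dimmer ones from 210 to 260 dpc. The changes were -0.88 against -2.30 for *MYH3*, 1.45 against 2.18 to 2.41 for *MYH7*, and -0.78 against -1.96 and -2.45 for *MYH8*.

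None of the 6 myosin light chains and kinases measured passed the test. The atrial and embryonic light chain *MYL4* was lower on 5 of 6 arrays at 210 dpc than on any at 180 dpc, at 5.68, 6.52, 6.16, 5.95 and 5.97 against 3.80 (lowest), 5.25 (median) and 5.71 (highest), a difference of -0.93 (adjusted p = 0.091). Slow *MYL3* differed by -0.67 (-1.41 to 0.08), and fast *MYL1* and *MYL11* by 0.06 and 0.08. Their second probes differed more, by 0.50 for *MYL1* (adjusted p = 0.075, no overlap of the stages) and 0.40 for *MYL11* (adjusted p = 0.17). Of 12 troponins, tropomyosins and actins, beta-tropomyosin *TPM2* rose by 0.49 ± 0.10 (adjusted p = 0.019), and the others did not pass by their brightest probe. Fast troponin T *TNNT3* differed by 0.50 (0.16 to 0.83, adjusted p = 0.08), while its second probe, almost as bright, rose by 0.57 without overlap (adjusted p = 0.034) and the dimmest did not pass (0.32). Also not passing were cardiac troponin T *TNNT2* at -0.66 (-1.11 to -0.21, adjusted p = 0.078) and cardiac troponin I *TNNI3* at -1.09 (-1.93 to -0.25, adjusted p = 0.11). The calcium-binding troponins *TNNC1* (0.11) and *TNNC2* (0.10) and slow *TNNT1* (0.04) differed by less than their standard errors.

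**Figure D3:**
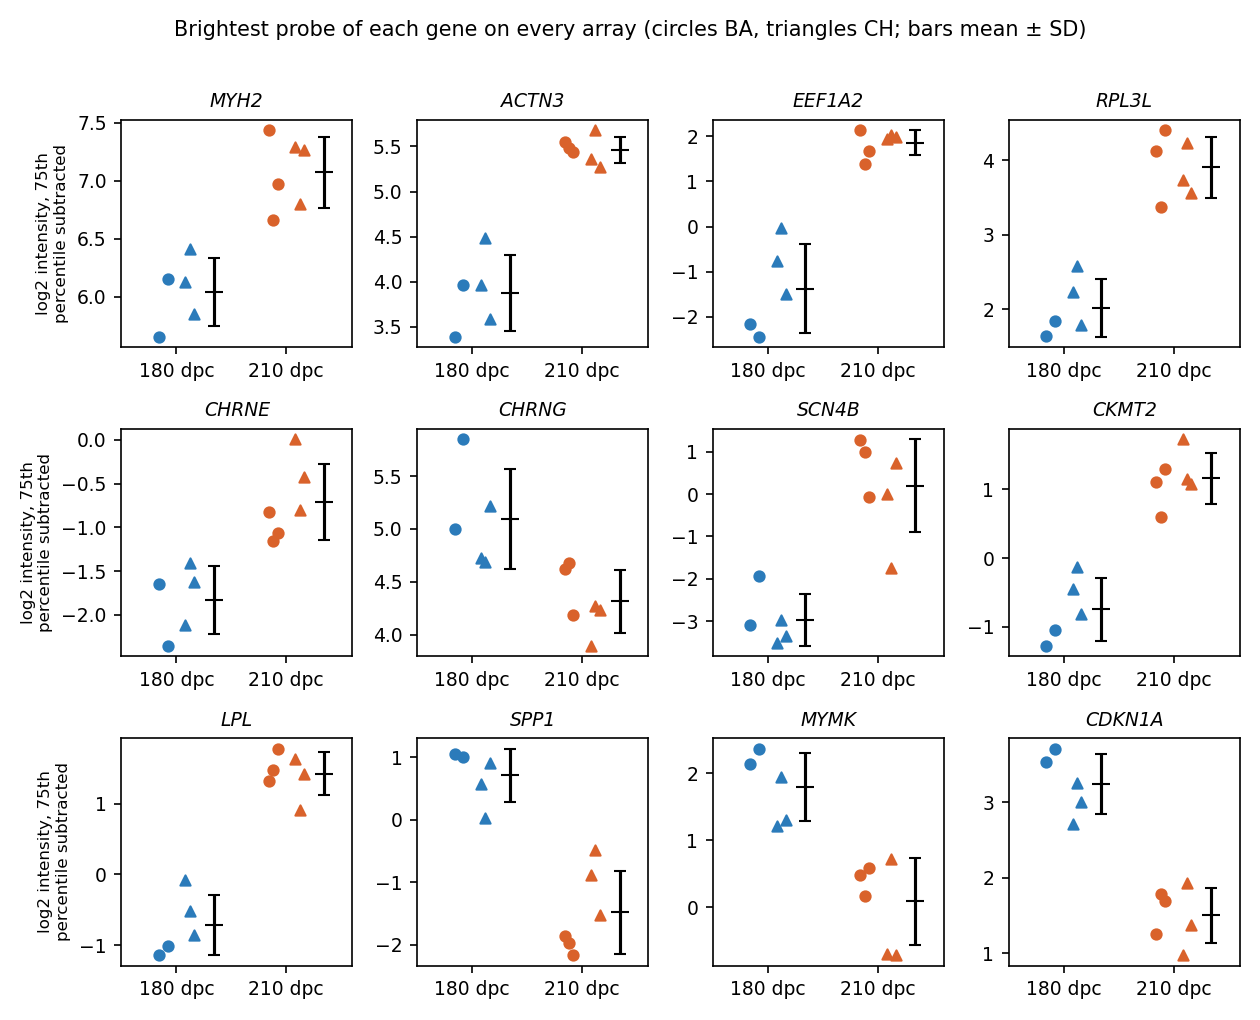
Level of the brightest probe of 12 genes on each of the 11 arrays (log2 intensity after subtraction of the array's 75th percentile); circles are BA, triangles CH, and the bars give mean ± SD over the 5 arrays at 180 dpc and the 6 at 210 dpc. The stages do not overlap in *MYH2*, *ACTN3*, *EEF1A2*, *RPL3L*, *CHRNE*, *SCN4B*, *CKMT2* and *LPL*, which are higher at 210 dpc, or in *SPP1*, *MYMK* and *CDKN1A*, which are lower; *CHRNG* is lower with its highest array at 210 dpc just under the lowest at 180 dpc.

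Of 16 fast fibre genes 8 rose and none fell, with a median difference of 0.52, against 2 of 15 slow fibre genes with a median of 0.11, and 389 of 10301 genes with a median of 0 over all genes tested. The difference between both lists was not tested. Alpha-actinin 3 (*ACTN3*), the Z-disc actinin of fast fibres, was at 3.39, 3.97, 3.96, 4.49 and 3.58 at 180 dpc and at 5.27 (lowest), 5.46 (median) and 5.68 (highest) at 210 dpc. Every array at 210 dpc was well above every array at 180 dpc, and the rise was 3.02-fold (1.59 ± 0.17, adjusted p = 0.0014). The other risers among the fast fibre genes were *AMPD1* (0.77), the AMP deaminase of fast fibres, the calcium store protein *CASQ1* (0.77), the calcium pump *ATP2A1* (0.56), the Z-disc protein *MYOZ1* (0.56) and the glycogen phosphatase subunit *PPP1R3A* (0.55). The slow fibre genes that passed were *FHL1* (0.62) and *SMPX* (0.37), both expressed beyond slow fibres. Of the 6 probes of *FHL1*, which differed by 0.29 to 0.62, 2 passed.

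Of 32 Z-disc and scaffold genes 12 rose, none fell and 30 were higher at 210 dpc, with a median of 0.45. The median was between 0.25 and 0.51 with sex, slide or sire in the model. Besides *ACTN3*, the largest rises were those of *TRIM63*, which encodes the ubiquitin ligase MuRF1 of the M-band and Z-disc, and of the thin filament pointed-end proteins *LMOD2* (1.05 ± 0.25) and *TMOD4* (1.02 ± 0.13). Levels of *TRIM63* were 0.30, 0.74, 0.56, 0.90 and 0.29 at 180 dpc and 1.6, 2.05 and 2.51 (lowest, median, highest) at 210 dpc. This amounts to 2.85-fold without overlap (adjusted p = 0.0018). The other proteolysis genes did not follow it as a group, since 3 of 30 rose and 1 fell with a median of 0.03.

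Of 26 calcium genes 6 rose and 1 fell (median 0.19), and of 22 genes of the dystrophin complex and fibre membrane 5 rose and none fell (median 0.25). Phospholamban (*PLN*), the inhibitor of the slow and cardiac calcium pump, had levels of -0.93, -1.51, -0.36, -0.21 and -0.55 at 180 dpc and of -0.04, 0.62 and 1.79 (lowest, median, highest) at 210 dpc. It rose by 1.51 ± 0.30 (adjusted p = 0.015), although its lowest array at 210 dpc lay close to its highest at 180 dpc. *CASQ1*, *ATP2A1*, the calcineurin subunit *PPP3CA* (0.64), the calcium channel subunit *CACNA2D1* (0.46) and the triad protein *JPH1* (0.45) rose as well, and the calcineurin inhibitor *RCAN2* fell by 0.61. In the membrane list the caveolar genes *CAVIN4* (0.65) and *CAV3* (0.49), the dystrophin partner *DTNA* (0.54) and the sarcoglycan *SGCB* (0.42) were among those that rose.

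At the nerve-muscle junction the subunits of the acetylcholine receptor moved in opposite directions. The epsilon subunit *CHRNE* of the adult receptor was at -1.65, -2.36, -2.12, -1.41 and -1.63 at 180 dpc and at -1.16, -0.81 and 0.01 (lowest, median, highest) at 210 dpc, a 2.25-fold rise (adjusted p = 0.0079). The gamma subunit *CHRNG* of the foetal receptor was at 5.0, 5.85, 4.73, 4.68 and 5.22 at 180 dpc and at 3.89, 4.25 and 4.68 at 210 dpc, 1.78-fold lower (adjusted p = 0.021). Neither subunit had an array of 1 stage inside the range of the other, although the closest arrays of *CHRNG* differed only beyond the second decimal. The subunits shared by both receptors, *CHRNA1* (0.17), *CHRNB1* (0.03) and *CHRND* (-0.07), did not pass. In the list of 19 junction genes 3 rose and 4 fell, with a median of -0.09. *CLCN1*, the chloride channel of the adult fibre membrane, rose by 1.16 ± 0.14, with all 4 of its probes rising. *ERBB3*, a neuregulin receptor, fell by 0.85, *NCAM1*, an adhesion molecule of immature and denervated fibres, by 0.54, and the synaptic adaptor *SNAP91* by 1.24.

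The sodium channel subunit *SCN4B* gave the largest change of this list. Its levels were -3.09 and -1.94 in BA and -3.51, -2.96 and -3.35 in CH at 180 dpc, and -1.75, 0.37 and 1.27 (lowest, median, highest) at 210 dpc. The stages did not overlap, but the spread at 210 dpc was wide (SD 1.09), and the rise was 3.08 ± 0.43 (8.43-fold, adjusted p = 0.0036).

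Of 11 creatine kinase and adenylate genes 5 rose and none fell by their brightest probe (median 0.36), *CKB* among the 5 although its probes disagreed, of 33 genes of glycolysis and glycogen 12 rose and none fell (median 0.33), and of 31 genes of fatty acid uptake and oxidation 8 rose and none fell (median 0.22). Mitochondrial genes showed smaller differences in the same direction. In the oxidative phosphorylation list 9 of 78 rose and 1 fell while 73 were higher at 210 dpc (median 0.22), and in the citrate cycle list 3 of 32 rose (median 0.24). With the sire in place of breed, these medians were 0.25 for both the creatine kinase and the glycolysis list, 0.18 for fatty acids, 0.10 for oxidative phosphorylation and 0.15 for the citrate cycle, and all stayed above 0.

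Sarcomeric mitochondrial creatine kinase (*CKMT2*) was at -1.28 and -1.04 in BA and at -0.46, -0.13 and -0.82 in CH at 180 dpc, and at 0.59 (lowest), 1.13 (median) and 1.73 (highest) at 210 dpc. Its rise of 1.95 ± 0.18 (3.87-fold, adjusted p = 0.00079) left a gap between the stages. Cytosolic muscle creatine kinase *CKM* rose by 0.77 ± 0.11. *GATM*, the enzyme of the first step of creatine synthesis, was at -2.85, -1.5, -0.27, -0.61 and -0.51 at 180 dpc and at 0.40, 0.65 and 1.08 (lowest, median, highest) at 210 dpc, with both BA arrays lowest (1.88 ± 0.35, adjusted p = 0.013). For brain creatine kinase *CKB* the probes disagreed: 3 rose by 1.02 to 1.11, 2 fell by 1.15 and 1.19, and 1 did not pass (0.43), so no direction is given for this gene.

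In glycolysis the rises were those of muscle enzymes. *FBP2*, the muscle fructose bisphosphatase, rose by 1.34 ± 0.33 (adjusted p = 0.038), with 3 of the 6 arrays at 210 dpc above all arrays at 180 dpc and the other 3 within their range. *PGAM2* (1.08 ± 0.14) was at 5.29, 5.85, 5.83, 6.06 and 5.67 at 180 dpc and at 6.58, 6.85 and 7.01 at 210 dpc (lowest, median, highest), without overlap. The glycogen targeting subunit *PPP1R3C* (0.97), beta-enolase *ENO3* (0.86), lactate dehydrogenase *LDHA* (0.84) and glycogen phosphorylase *PYGM* (0.81) followed, and *PGM1* (0.76), *PKM* (0.64), *PFKFB1* (0.62), *PFKM* (0.58) and glycogenin *GYG1* (0.53) rose less. The insulin-responsive glucose transporter *SLC2A4* rose by 0.87 ± 0.18, and *TBC1D1*, which restrains its traffic, fell by 0.57.

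Lipoprotein lipase (*LPL*), which releases fatty acids from circulating lipoproteins, changed more than any other gene of its list. Its levels were -1.14 and -1.0 in BA and -0.08, -0.52 and -0.85 in CH at 180 dpc, and 0.90 (lowest), 1.45 (median) and 1.78 (highest) at 210 dpc. The 4.44-fold rise (2.15 ± 0.21, adjusted p = 0.00079) left no overlap, and a second bright probe rose by 1.98 and a dim one did not pass. Adipocytes also express *LPL*. Of 12 adipocyte markers none rose and 1, *CIDEA*, fell by its brightest probe (its other 3 probes did not pass), while 5 were higher and 7 lower. Their summed level was 65.1 to 85.5 at 180 dpc and 39.3 to 139.4 at 210 dpc. The part of adipocytes in the rise of *LPL* was not tested. Enzymes of beta-oxidation rose by less, among them *ECI2* (0.56), *ETFDH* (0.53), *ACADVL* (0.51), *HADH* (0.46) and *DECR1* (0.38), as did the acyl-CoA synthetase *ACSL1* (0.56). In the respiratory chain *COX4I2* (0.87), *COX7A1* (0.74), *COX8B* (0.54) and *SDHB* (0.49) rose most. *PERM1*, a muscle regulator induced by PGC-1 and ERR factors, was the only 1 of 26 mitochondrial regulators and carriers to pass (1.03 ± 0.18).

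For several proteins with a form of adult (mainly fast) muscle, called the muscle form here, and another form encoded by a separate gene, the muscle form rose and the other form did not. Some of the other forms are also made in muscle, such as *CHRNG* of the foetal receptor and the slow and cardiac calcium pump *ATP2A2*. The 14 pairs compared were put together after the values of some had been seen, so they describe these arrays and support no test. The muscle form rose in 13 of the 14 pairs and was higher without passing in the other (*SLC25A4*, 0.41, adjusted p = 0.06), with a median of 0.82 and a range of 0.33 to 3.32. The other form fell in 3 and did not pass in 11, with a median of -0.18 and a range of -0.83 to 0.06. These values are of brightest probes. Among all probes, *ATP2A2* reached 0.40, *ENO1* 0.23, and *PGAM1* and *LDHB* 0.19, although none of the probes of these genes passed. The creatine kinases *CKM* and *CKB* were not among the pairs. By its brightest probe *CKB* rose by 1.02, more than *CKM* (0.77), which is against the pattern of the pairs, but the probes of *CKB* disagreed.

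**Figure D4:**
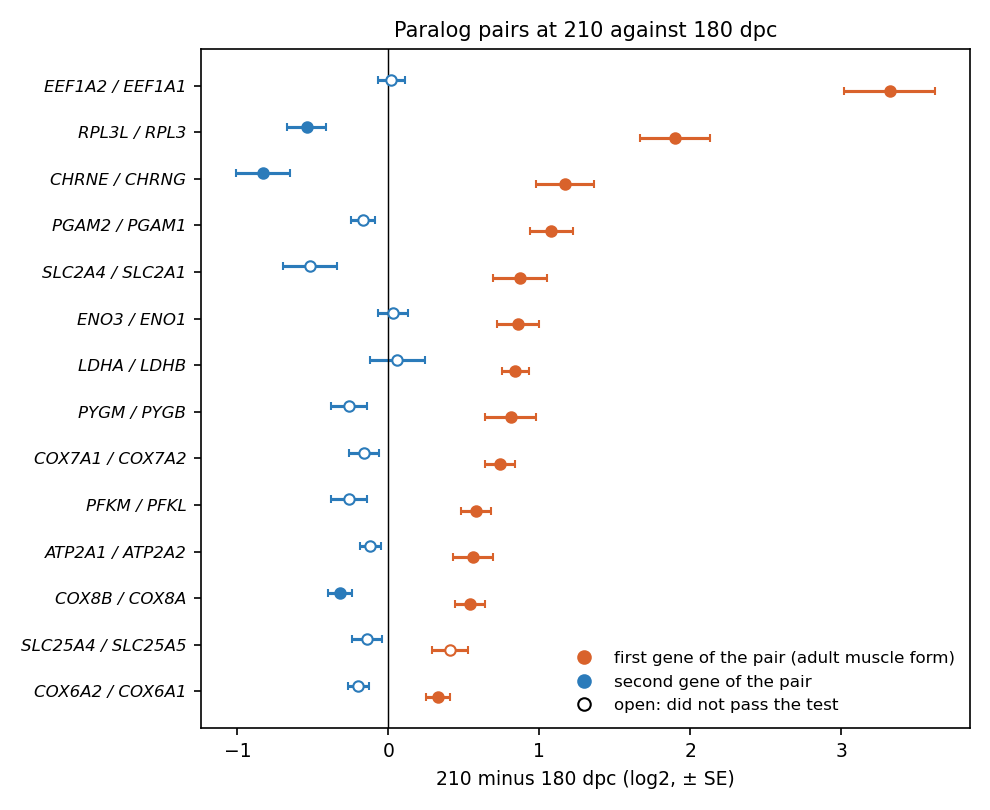
Difference between 210 and 180 dpc (log2, ± SE) of the brightest probe for 14 pairs of genes that encode forms of the same protein, the form of adult (mainly fast) muscle in orange and the other form in blue; open symbols did not pass the test. All 14 orange symbols lie right of their blue partner, with the widest gaps in *EEF1A2* and *EEF1A1* and in *RPL3L* and *RPL3*.

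The widest gap was in elongation factor 1 alpha, which brings aminoacyl-tRNA to the ribosome. *EEF1A2*, the form of adult muscle and neurons, was at -2.15 and -2.44 in BA and at -0.76, -0.02 and -1.50 in CH at 180 dpc, and at 1.39 (lowest), 1.96 (median) and 2.14 (highest) at 210 dpc. The levels at 210 dpc lay close together and far above those at 180 dpc, a 9.98-fold rise (3.32 ± 0.30, adjusted p = 0.00075). All 9 probes of the ubiquitous *EEF1A1* differed by between -0.10 and 0.02. Similarly *RPL3L*, a muscle-specific ribosomal protein, was at 1.64, 1.84, 2.23, 2.58 and 1.78 at 180 dpc and at 3.37, 3.93 and 4.41 (lowest, median, highest) at 210 dpc. It rose by 1.90 ± 0.23 (adjusted p = 0.0019), and its ubiquitous relative *RPL3* fell by 0.54 ± 0.13 (adjusted p = 0.03), from 5.80, 6.06, 6.37, 6.04 and 6.11 to 5.21, 5.61 and 5.72. *RPL3* was the only 1 of 73 cytosolic ribosomal proteins to pass, and the median of the others' list was 0.04. Of 73 mitochondrial ribosomal proteins 2 rose (median 0.09), and of 37 proteasome genes 1 rose (median 0.10).

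Subunits of cytochrome c oxidase showed the same pattern, with *COX6A2*, *COX7A1* and *COX8B* rising by 0.33, 0.74 and 0.54 while *COX6A1*, *COX7A2* and *COX8A* differed by -0.20, -0.16 and -0.32. Of the latter, *COX8A* passed. The glucose transporters *SLC2A4* and *SLC2A1* differed by 0.87 and -0.52.

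Of 59 cell cycle genes 14 fell, none rose and 55 were lower at 210 dpc, with a median of -0.28. The median was -0.17 with slide as a block, -0.25 in females alone and -0.32 with the sire in the model. Cyclin D2 (*CCND2*) was at 6.0, 6.26, 6.15, 6.19 and 6.02 at 180 dpc and at 5.12 (lowest), 5.33 (median) and 5.73 (highest) at 210 dpc, without overlap (-0.73 ± 0.12, adjusted p = 0.0061). The mitotic genes *TTK* (-0.65), *CDC20* (-0.62), *UBE2C* (-0.57), *CDCA3* (-0.57), *KIF23* (-0.54), *KIF20A* (-0.54) and *AURKB* (-0.53), and the ribonucleotide reductase subunit *RRM2* (-0.46), fell by similar amounts. Inhibitors of the cell cycle did not rise in their place: of 12 measured none rose, and *CDKN1A* and *CDKN1C* fell. *CDKN1A*, which encodes p21, was at 3.54, 3.72, 2.71, 3.26 and 3.00 at 180 dpc and at 0.97, 1.53 and 1.92 at 210 dpc (lowest, median, highest), 3.44-fold lower (adjusted p = 0.0011).

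Among 27 myogenic factors and satellite cell genes 5 fell and 1 rose, with a median of -0.07. Myomaker (*MYMK*), the membrane protein needed for myoblast fusion, was at 2.15 and 2.37 in BA and at 1.22, 1.95 and 1.30 in CH at 180 dpc, and at -0.71 (lowest), 0.32 (median) and 0.73 (highest) at 210 dpc. All arrays at 210 dpc were lower, by 3.42-fold (-1.77 ± 0.26, adjusted p = 0.0041), and a second probe fell by 1.47. Its dimmest probe fell too, with 1 of 6 arrays well above background at 210 dpc. N-cadherin (*CDH2*, -0.65), the Notch target *HEY1* (-0.57) and *NCAM1* (-0.54) also fell, and *NFIC* rose (0.45). The satellite cell cadherin *CDH15* fell by its brightest probe (-0.74, adjusted p = 0.026), but its other probe rose (0.78, adjusted p = 0.0081). Myostatin (*MSTN*), the inhibitor of muscle growth, was at 0.43 and 1.57 in BA and at -1.50, -0.64 and 0.02 in CH at 180 dpc. Over both breeds it was at -0.88, 0.58 and 1.88 (lowest, median, highest) at 210 dpc. With the breeds pooled its stages overlapped widely, and the study reported *MSTN* as higher in BA at all stages. With breed in the model the difference was 0.32 (95% interval -0.33 to 0.97), and -0.006 by a second probe.

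The list of the IGF system and imprinted growth genes had the largest share of falling genes among the lists, 8 of 25, with 1 rise and a median of -0.27. Insulin-like growth factor binding protein 2 (*IGFBP2*) was at -1.95, -2.29, -2.32, -2.45 and -2.42 at 180 dpc and at -4.50, -3.81 and -3.69 at 210 dpc (lowest, median, highest), a 3.19-fold fall with little spread within either stage (adjusted p = 0.00071). The imprinted *NNAT* was at 3.08, 2.84, 1.81, 2.46 and 2.16 at 180 dpc and at 0.14, 1.16 and 1.47 at 210 dpc (-1.57 ± 0.20, adjusted p = 0.0025), also without overlap. Lower levels were also measured for the imprinted genes *PHLDA2* (-0.74, with 3 of 6 arrays well above background at 210 dpc), *PEG10* (-0.63), *MEST* (-0.55), *PLAGL1* (-0.47) and *CDKN1C* (-0.46), and for *IGF2BP3* (-0.71), an mRNA-binding protein of foetal tissue. *H19*, an imprinted non-coding RNA, rose by 0.45 ± 0.11 (adjusted p = 0.039).

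Matrix genes moved unevenly. Of 31 proteoglycans and matricellular proteins 6 fell and 2 rose (median -0.11), of 30 genes of collagens and their processing 4 fell and 1 rose (median -0.16), and of 18 matrix proteinases and inhibitors 1, *MMP14*, fell (-0.75). With the sire in place of breed the medians of these lists were 0.02, 0.08 and 0.11, so their direction as groups depended on that term. Versican (*VCAN*) was at 1.49, 1.24, 1.75, 0.92 and 1.29 at 180 dpc and at -0.37, -0.12 and 0.37 at 210 dpc (lowest, median, highest), 2.67-fold lower (adjusted p = 0.0022). Periostin (*POSTN*) was at 4.31, 4.64, 4.71, 4.37 and 5.45 against 2.90, 3.04 and 4.01, 2.66-fold lower (adjusted p = 0.0055). Osteopontin (*SPP1*), a secreted glycoprotein of matrix and immune cells, was at 1.05 and 1.0 in BA and at 0.57, 0.02 and 0.90 in CH, against -2.17 (lowest), -1.69 (median) and -0.49 (highest), 4.45-fold lower (adjusted p = 0.0039). None of these 3 genes had overlapping stages. *ASPN* (-0.89), *GPC3* (-0.54), *GPC4* (-0.44), the collagen cross-linking enzymes *LOXL1* (-0.82) and *LOXL3* (-0.35), *COL18A1* (-0.64) and *P4HA2* (-0.36) fell as well. Matrix Gla protein *MGP* (1.03), *CCN1* (0.72) and *COL15A1* (0.47), a basement membrane collagen, rose. Of 14 fibroblast and tendon markers, which share collagens with these lists, 1 (*PDPN*, -0.80) fell and none rose. In this list 3 were higher and 11 lower, with a median of -0.14. The summed level of these markers in BA was 302.1 and 353.9 at 180 dpc and 364.8 to 383.6 at 210 dpc. In CH it was 413.8 to 575.1 at 180 dpc and 318.5 to 497.8 at 210 dpc. Their part in the matrix results was not tested.

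Among stress and hormone response genes, 4 of 15 small heat shock and chaperone genes rose and none fell (median 0.38), as did 4 of 24 genes of the thyroid and glucocorticoid response (median 0.17). The inducible chaperone *HSPA1A* was at 0.25, 0.86, 1.05, 1.49 and 0.98 at 180 dpc and at 1.35, 2.34 and 4.2 at 210 dpc (lowest, median, highest), a 3.09-fold rise in which 1 array lay within the range of 180 dpc (adjusted p = 0.026). The lysine methyltransferase *SMYD2* (0.84), *BAG3* (0.65) and *HSPB3* (0.44) were the others. *HSD11B1*, the enzyme that regenerates active glucocorticoid, rose by 1.88 ± 0.40 (adjusted p = 0.021), from -5.13, -6.32, -4.09, -4.93 and -5.14 to -4.55, -3.12 and -2.76, with 1 array inside the range of 180 dpc, where 2 of 5 arrays were well above background. The glucocorticoid-responsive genes *DUSP1* (0.74), *MT2A* (0.70) and *ZBTB16* (0.67) rose. Of 16 early response genes, which also react to handling of tissue, 3 rose (*HSPA1A*, *JUN* and *DUSP1*) and 15 were higher (median 0.46), and their summed level was 60.9 to 89.7 at 180 dpc and 75.4 to 149.9 at 210 dpc. Their part in the results on stress genes was not tested.

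Other lists held few changes. None of 24 interferon-induced genes passed (median 0.03). Of 32 genes of amino acid supply and tRNA charging 2 rose and 2 fell (median 0.05); cytosolic serine hydroxymethyltransferase *SHMT1* rose by 0.60 and mitochondrial *SHMT2* fell by 1.11, and asparagine synthetase *ASNS* fell by 0.93. Of 10 genes of glucose transport and insulin 2 rose and 1 fell. Among 10 embryonic patterning and RNA-binding genes *IGF2BP3* and *SOX4* fell (-0.67 for the latter).

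Among markers of cells other than muscle fibres, some members of the erythroid, leukocyte, smooth muscle and endothelial lists passed. Over all genes tested, 3.78% rose and 4.42% fell. The erythroid markers *HBB* (-1.13, adjusted p = 0.029) and *HBA* (-0.90, adjusted p = 0.046) fell, 2 of the 8 measured, and the summed level of the list was 174.9 to 293.8 at 180 dpc and 77.0 to 169.4 at 210 dpc, without overlap. Both genes were highest on the same array, BA replicate 1 at 180 dpc. Of 21 leukocyte markers 4 fell, the macrophage genes *C1QB* (-0.81), *C1QA* (-0.74) and *CSF1R* (-0.63), and *LAPTM5* (-0.51), with summed levels of 42.7 to 69.7 and 38.1 to 52.6. As a list the leukocyte markers were split, with 10 higher and 11 lower at 210 dpc and a median of -0.09. *SPP1* is also made by macrophages, and the part of these cells in its fall was not tested. Of 11 smooth muscle and pericyte markers *RGS5* (1.26), *LMOD1* (0.63) and *PDGFRB* (0.52) rose and *MCAM* (-0.66) fell, with summed levels of 59.6 to 70.4 and 44.7 to 74.0. In this list 5 were higher and 6 lower, with a median of -0.075. Of 14 endothelial markers 1 (7.14%), *PLVAP*, fell (-0.43), while 5 were higher and 9 lower. In the lists of Schwann cell and nerve and of cartilage and bone none passed. Of the 10 Schwann cell and nerve markers 8 were higher, with a median of 0.51 and summed levels of 55.5 to 65.0 and 47.1 to 60.1, and their part in the results on the nerve-muscle junction was not tested. Of the 5 cartilage and bone markers 4 were higher, with a median of 0.40 and summed levels of 6.92 to 18.2 and 6.19 to 12.7. Of the 13 skeletal muscle fibre markers all were higher at 210 dpc, and *ACTN2* (0.62) and *CKM* (0.77) rose.

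The genes with the largest changes overall included several outside these lists. *ETNPPL*, which breaks down phosphoethanolamine, was at -5.37 and -4.52 in BA and at -3.23, -3.95 and -4.54 in CH at 180 dpc, and at -1.37 (lowest), -0.95 (median) and -0.52 (highest) at 210 dpc. The gap between the stages exceeded the range of the 6 arrays at 210 dpc, and the rise was 3.42 ± 0.30 on the log2 scale (adjusted p = 0.00071). *KLHL33*, a kelch-like protein, rose by 1.84 ± 0.26, the chemokine scavenger *ACKR4* by 1.74 ± 0.31 and *UNC80*, a subunit of the sodium leak channel, by 1.72 ± 0.28, all without overlap. With *EEF1A2*, *SCN4B*, *LPL*, *CKMT2*, *RPL3L* and *GATM* these made up the 10 largest rises among genes whose stages did not overlap.

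The largest fall was that of *C21H14orf180*, whose function is not described here. Its levels were 1.91 and 1.19 in BA and -0.86, -0.63 and -0.06 in CH at 180 dpc, and -5.12 (lowest), -3.56 (median) and -1.70 (highest) at 210 dpc. It was 16.3-fold lower at 210 dpc (-4.03 ± 0.31, adjusted p = 0.00056), with BA above CH at 180 dpc and no overlap of the stages.

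A pair of subunits of the GABA-A receptor, an ion channel best known from neurons, was also among the 10 largest falls without overlap. *GABRG1* was at -2.43, -1.65, -3.94, -3.31 and -3.79 at 180 dpc and not well above background at 210 dpc (0 of 6 arrays), a fall of at least 4.93-fold (adjusted p = 0.0011). *GABRA2* also fell (adjusted p = 0.0028), from -2.87, -2.52, -3.54, -2.96 and -3.27 at 180 dpc, but only 1 of the 6 arrays at 210 dpc was well above background, so the size of its fall is not given. Both genes were low at 180 dpc compared with their own levels at 110 dpc, given below. *MAP1LC3C*, an autophagy protein, fell likewise (adjusted p = 0.0042) with 1 of 6 arrays well above background at 210 dpc. *DAPL1* was 4.87-fold lower and the cholecystokinin receptor *CCKAR* 3.47-fold. *RSPO2*, a secreted activator of Wnt signalling, was likewise not well above background at 210 dpc (0 of 6 arrays), a fall of at least 2.49-fold (adjusted p = 0.015). *SPP1*, *CDKN1A* and *MYMK* complete the 10. A probe was tested if well above background on at least 5 arrays, the number at 180 dpc. *GABRG1* and *RSPO2* were thus tested only through the stage where they were high, and *GABRA2* and *MAP1LC3C* almost only. The adjusted p values and ranks of these 4 genes are not free of that choice.

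The change did not differ detectably between the breeds. No probe passed in the test of the breed difference of the stage change (0%), with 1596 probes (5.1%) at an unadjusted p under 0.05 and a smallest adjusted p of 0.13 in limma. By gene, 494 (4.8%) had an unadjusted p under 0.05 and none passed. Tested alone, 387 probes passed within BA (1.24%) and 154 within CH (0.492%), or 147 (1.43%) and 45 (0.437%) of the genes. Of the 387, 371 (95.9%) had the same sign in CH, where their median change was smaller: risers had a median of 1.23 in BA and 0.67 in CH, and fallers of -1.05 and -0.63. Of the 154, 146 (94.8%) had the same sign in BA, against 65.5% of all tested probes. Because the probes were picked for a large change in 1 breed, a smaller value in the other breed follows in part from that choice. Over all 31322 probes the changes of both breeds, which share no array but share slides and scan days, correlated at r = 0.44 (Spearman's rho = 0.41).

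**Figure D5:**
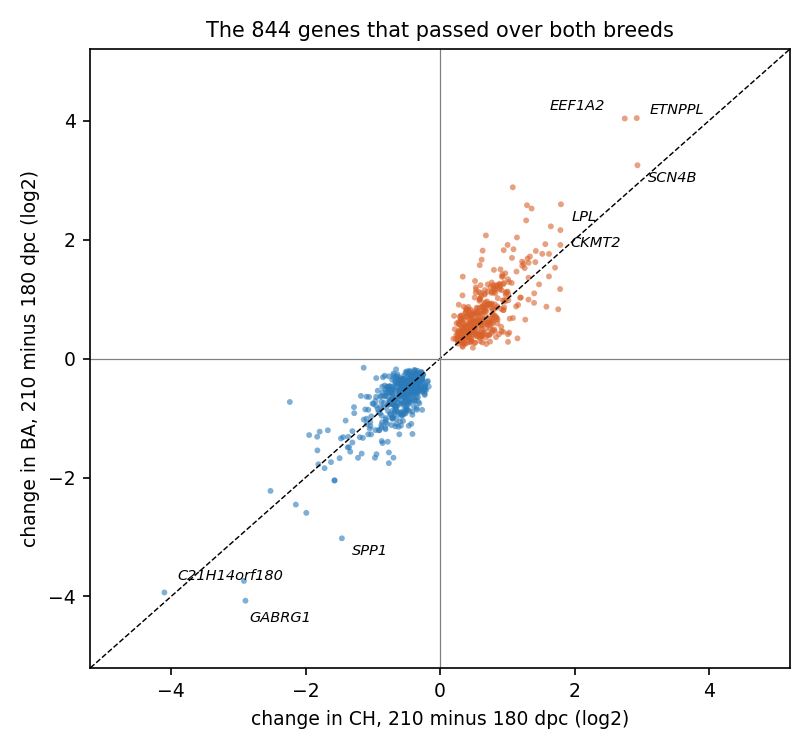
Change from 180 to 210 dpc in CH (horizontal axis) and in BA (vertical axis), both log2, for the 844 genes that passed over both breeds; orange genes rose, blue genes fell, and the dashed line marks equal change. All points have the same sign in both breeds, which the choice of genes by the joint test favours, and the labelled risers *EEF1A2*, *ETNPPL* and *LPL* lie above the line, with larger changes in BA.

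Several leading genes had similar changes in both breeds. *SCN4B* rose by 3.25 in BA and 2.94 in CH, *CKMT2* by 2.16 and 1.79, *MYH2* by 1.12 and 0.99 and *C21H14orf180* differed by -3.93 and -4.10. The gap was wider for *GATM* (2.88 and 1.08), *SPP1* (-3.02 and -1.46) and *EEF1A2* (4.04 and 2.75). The genes with the lowest unadjusted p for a breed difference were *TMEM176B* (3.49 in BA and 0.26 in CH, adjusted p = 0.13) and its neighbour *TMEM176A* (2.43 and -0.09, adjusted p = 0.49). *TMEM176B* was at -3.49 and -3.32 in the BA foetuses at 180 dpc and at -0.22, -0.94 and -1.27 in the CH foetuses, and the 6 arrays at 210 dpc lay between -0.70 and 0.43. The lowest levels were those of 2 foetuses with the same father, who was also the father of 1 BA foetus at 210 dpc. Any part of the sire in these levels was not tested. *KCNH6* (3.72 and -1.08) and *PNPLA4* (-1.08 and 1.08) were also among the lowest, and neither passed.

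Levels at 110 and 260 dpc, 5 arrays each on the same scale, place these changes in the longer course. They are described without a test, since their differences from 180 and 210 dpc use the same arrays as the comparison above. *EEF1A2* was at -6.93, -1.38, 1.86 and 3.36 (means) at 110, 180, 210 and 260 dpc, and *ACTN3* at 0.03, 3.88, 5.46 and 6.97. *ETNPPL* had means of -7.71, -4.32, -0.94 and 1.04, and *CKMT2* of -2.35, -0.75, 1.16 and 3.81, so that these genes were higher at each later stage.

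Some genes had close means at 110 and 180 dpc. *LPL* had means of -0.97, -0.72, 1.42 and 3.04, *TRIM63* of 0.88, 0.56, 2.05 and 4.15, and *CHRNE* of -2.06, -1.83, -0.71 and 0.94. *SHMT2*, at 1.85, 1.68, 0.59 and 0.50, also had close means at 210 and 260 dpc. *CDKN1A* (4.32, 3.24, 1.5 and 1.52) and *SCN4B* (-5.77, -2.97, 0.20 and 0.62) had moved before 180 dpc as well, and had close means at 210 and 260 dpc.

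For other genes the means differed between 210 and 260 dpc, with or without a difference before. By their brightest probes *MYH3* had means of 8.09, 8.03, 8.10 and 7.20 and *MYH8* of 7.25, 7.70, 7.89 and 7.11, so both had lower means at 260 than at 210 dpc, and *MYH8* also had a lower mean at 110 dpc. The dimmer *MYH3* probe had means of 3.73, 3.78, 3.28 and 0.98. Slow-fibre genes that did not pass between 180 and 210 dpc had higher means at 260 dpc, with *MYH7* at 6.66, 6.89, 6.99 and 8.47, *TNNC1* at 6.91, 6.8, 6.87 and 9.03 and *TNNT1* at 3.70, 3.99, 4.00 and 6.47. *MYL4* was at 6.74, 6.06, 5.09 and 2.46. Several genes that fell between 180 and 210 dpc had lower means again at 260 dpc, with *MYMK* at 2.88, 1.80, 0.09 and -1.69 and *SPP1* at 1.85, 0.71, -1.48 and -4.13. *GABRG1* had means of 1.18 and -3.02 at 110 and 180 dpc, and *GABRA2* of -0.87 and -3.03, before both came close to background at 210 dpc.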

How the data were processed

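Muscle RNA was hybridized to single-colour Agilent 4x44K bovine arrays, 1 foetus per array. Per the labels and the file headers, the authors extracted spot intensities with Agilent Feature Extraction 10.7, and the deposited intensity (processed signal) was not scaled between arrays. The authors' value table of log2 intensities was deposited as well, and 99.98% of its values lay within 0.01 of log2 of the scanner intensities. It served as an alternative.

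Control spots and 258 outlier spot values were left out (0 spots were saturated), spots of a probe were averaged, log2 was taken and the 75th percentile of each array subtracted. Of 43653 probes 26628 were named, for 12538 genes, through accessions and a RefSeq gene table of another assembly than the array's, so no coordinates or sequences are given. A probe was tested if well above background on at least 5 of the 11 arrays, which limits precision for dim genes. The arrays of either stage alone were enough to meet this rule. *XIST* and *C13H20ORF194* were not analysed here. A few genes that the naming rule picks are not reported here. The fit used limma 3.58.1 in R 4.3.3, with stage and breed as terms (residual degrees of freedom 8, prior 2.61) and Benjamini-Hochberg adjustment over all tested probes. Replicates are separate foetuses. The scripts were tested on simulated data.

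A fold given as "at least" sets the mean of the stage that measured a probe against, per array of the other stage, the higher of the lowest signal well above background and the probe's own signal. Named are the 10 largest rises and falls without overlap and with 1 sign in both breeds, up to 4 members per list with the largest changes, the myosins and troponins, genes the study names as developmentally regulated, *MSTN*, and 5 genes with the lowest p for a breed difference; other list members that passed, shared receptor subunits and paralogs were added after their values were seen. The groups compared, the members and the lists were chosen with earlier results of these data known. A gene said to rise or fall did so by its brightest probe, and its other probes did not always pass. Among such genes 1 of 3 probes passed for *CDC20*, *RRM2*, *ERBB3*, *ETFDH* and *ECI2*, 1 of 4 for *P4HA2* and 1 of 2 for *KLHL33*, with the same sign on all. List levels are sums of intensities divided by the 75th percentile. Alternatives were other background corrections, scalings, filters, covariates, blocks and variance models, and each array left out.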

Additional observations from a re-analysis of the deposited data

Results flagged for a closer look

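Of 270 combinations of gene and stage examined for a single array far from the rest, 11 (4.07%) stood out, and chance gives about 1 in 20. At 180 dpc these were *JUN* (2.41 in CH replicate 2, next 2.92), *PHLDA2* (-4.94 in CH replicate 2, next -4.25), *SUCLA2* (1.32 in CH replicate 2, next 1.10) and *MYH8* (7.38 in BA replicate 1, next 7.75). At 210 dpc they were *BAG3* (4.48 in CH replicate 3, next 3.87), *COX4I2* (-0.34 in CH replicate 1, next -0.74), *HSD11B1* (-4.55 in CH replicate 2, next -3.37) and *PHLDA2* (-5.68 in CH replicate 1, next -5.08). *PPP1R3C* (3.64 in BA replicate 3, next 3.81), *TNNC2* (8.35 in CH replicate 1, next 8.67) and *VLDLR* (2.46 in BA replicate 1, next 2.18) were the others at 210 dpc.

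*PNPLA4* moved in opposite directions in the breeds, by -1.08 in BA and 1.08 in CH, a difference of -2.16 that did not pass in limma (adjusted p = 0.68).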

How the results depend on the processing

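All of the 2204 probes that a setting measured kept their sign in every setting, and no named gene that passed reversed. The choice of these probes and genes on the same arrays favours this. The count was 2204 as reported, 305 with the authors' table without scaling (66.2% of them rising), 1240 without the filter on dim probes, 202 in females alone, 3 with slide as a block, 55 when tested against a log2 difference of 0.5, and 1114 to 2057 with 1 array left out. After seeing the data, 2 settings were added, the scan day with 3 arrays of each stage (0 in limma, 3834 at an unadjusted p under 0.05) and the sire as a fixed term (60). The cause of these differences was not tested, although fewer arrays or fewer residual degrees of freedom entered several of them. Other settings gave 1601 to 2686.

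Replicate numbers did not pair the foetuses: deviations of 15 same-numbered pairs had a median correlation of 0.042 (-0.184 to 0.256), and of 30 other pairs -0.007. With the replicate block 1680 probes passed, 119 within BA and 53 within CH.

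Within BA (387 as reported) counts were 631 with normexp, 150 with the authors' table, 126 without the filter, 701 with the mean filter, 2 in females, 585 with all 21 arrays, 0 with slide, 788 with trended variance and 26 to 372 with 1 array left out. Within CH (154) they were 320 with normexp, 5 without the filter, 263 with probes above background on all 11 arrays, 420 with the mean filter, 68 with sex, 0 in females, 338 with all 21 arrays, 0 with slide, 6 with scan day, 275 with sire as a random block, 440 with trended variance and 5 to 158 with 1 array left out. The test of the breed difference gave 64 with the authors' table and 0 to 1 with 1 array left out.

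Of 114 named genes that passed, 92 still passed with sex, 21 in females, 36 of 104 with the authors' table, 9 with the sire, 1 with slide, and 70 to 103 with 1 array left out. Genes that had not passed and changed sign were, with normexp, *MYH3* (-0.003) and *MYL6B* (-0.015); with quantile normalization, *MYL1* (-0.007), *MYL2* (-0.005), *MYL6B* (-0.099), *TNNC1* (-0.005), *TNNC2* (-0.03) and *TNNT1* (-0.002); and *MYL6B* with median scaling (-0.016) or without breed (-0.048). In females they were *MYL1* (-0.047), *MYL11* (-0.053), *MYL6B* (-0.064), *TNNC2* (-0.031) and *PNPLA4* (-0.345), and with all 21 arrays *MYL6B* (-0.002) and *PNPLA4* (-0.004). With slide they were *MYH7* (-0.054), *MYL6B* (-0.338), *TNNC1* (-0.079), *TNNT1* (-0.061) and *PNPLA4* (-0.161), and with the sire *MYH7* (-0.137), *MYL2* (-0.044), *MYL6B* (-0.172), *TNNC1* (-0.151), *TNNT1* (-0.206) and *PNPLA4* (-0.147). On the single scan day *PNPLA4* was at -0.232. With 1 array left out the ranges were -0.156 to 0.115 for *MYL6B*, -0.005 to 0.116 for *MYL1*, -0.008 to 0.177 for *TNNC2*, -0.103 to 0.149 for *TNNT1* and -0.138 to 0.478 for *PNPLA4*.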
